A study of Rattus norvegicus with 32 samples.

Results

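The nuclear-encoded subunits of the 5 oxidative phosphorylation complexes were followed in the liver of ozone-exposed and air-exposed rats. Members were taken by gene symbol from the array's annotation, as every gene with a probe set of its own whose symbol begins with Nduf followed by a, b, c, s or v and a digit, is Sdha, Sdhb, Sdhc or Sdhd, or begins with Uqcr, Cox4 to Cox8 or Atp5. This gave 76 of the 13437 genes measured by such a probe set, with 33 in complex I, 4 in complex II, 7 in complex III, 16 in complex IV and 16 in complex V. The brightest probe set stood for a gene, 85 probe sets matched in all, and 8 members had more than 1. Of the 76 members, 74 were bright enough to be tested. Cox6b2 and Cox8b, isoforms known from testis and from muscle, had mean log2 levels of 7.10 and 6.96, below the limit of 7.107, and have no test below. The symbols of 13 further genes of these families, among them Cox6c, Ndufa10 and Uqcrb, appeared only on probe sets shared with other genes and were not analysed here. Cox6c-ps1 is annotated as a pseudogene, and Ndufa4 and Ndufa4l2 were kept with complex I by symbol, although Ndufa4 is now known as a subunit of complex IV.

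The animals were male Wistar Kyoto (WKY) rats, 10 weeks old and weighing 250 to 300 g, and the labels name no mutation or transgene. They inhaled ozone at 1 ppm or filtered air for 6 h per day. Livers were taken directly after the first day's exposure (6 ozone, 6 air), directly after the second day's (5 ozone, 5 air), or 18 h after the second day's (5 ozone, 5 air). Ozone arrays were set against air arrays of the same harvest time. The labels do not state that each sample came from its own animal, so p-values measure the spread between samples, which may be technical.

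Oxidative phosphorylation takes place in the inner mitochondrial membrane. Complex I oxidises NADH and complex II oxidises succinate, both pass electrons through ubiquinone to complex III, and cytochrome c carries them on to complex IV, where oxygen is reduced. Complexes I, III and IV pump protons, and complex V, the ATP synthase, uses their return flow to make ATP. In liver this supply pays for gluconeogenesis and urea synthesis. Nearly all subunits are encoded in the nucleus and imported, while a few core subunits of complexes I, III, IV and V are encoded by mitochondrial DNA. Promoters of the nuclear genes are known in other mammals to be bound by NRF1, GABPA, ESRRA and YY1, with the PGC-1 coactivators.

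Upstream sequences are shown for 4 members: Atp5mc1 and Ndufs3, which had the smallest p-values on day 1, Ndufa6, which fell, and Atp5mc3. The last is shown because it is 1 of 2 members with an ESRRA match. Each is the 250 bases before the gene's start, 5′ to 3′ on the gene's strand, from RefSeq on rat build GRCr8. Capitals mark matches to the letters searched.
Atp5mc1 (chr10:81523346-81523595, minus strand): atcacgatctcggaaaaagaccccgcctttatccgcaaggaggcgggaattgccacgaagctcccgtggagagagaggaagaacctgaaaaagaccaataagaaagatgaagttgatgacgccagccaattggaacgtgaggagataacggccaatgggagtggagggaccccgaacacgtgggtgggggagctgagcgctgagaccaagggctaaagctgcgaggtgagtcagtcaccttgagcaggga
Ndufs3 (chr3:97339655-97339904, minus strand): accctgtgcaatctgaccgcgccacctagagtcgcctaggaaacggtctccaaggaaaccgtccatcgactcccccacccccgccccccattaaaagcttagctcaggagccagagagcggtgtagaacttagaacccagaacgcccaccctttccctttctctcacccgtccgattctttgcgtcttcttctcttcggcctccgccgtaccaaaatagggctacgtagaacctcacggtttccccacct
Ndufa6 (chr7:115750318-115750567, minus strand): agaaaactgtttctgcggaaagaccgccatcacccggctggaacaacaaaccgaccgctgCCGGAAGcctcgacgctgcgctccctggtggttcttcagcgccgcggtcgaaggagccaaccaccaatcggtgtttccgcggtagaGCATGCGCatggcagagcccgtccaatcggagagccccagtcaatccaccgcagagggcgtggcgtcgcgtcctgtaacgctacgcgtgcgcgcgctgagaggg
Atp5mc3 (chr3:79220665-79220914, minus strand): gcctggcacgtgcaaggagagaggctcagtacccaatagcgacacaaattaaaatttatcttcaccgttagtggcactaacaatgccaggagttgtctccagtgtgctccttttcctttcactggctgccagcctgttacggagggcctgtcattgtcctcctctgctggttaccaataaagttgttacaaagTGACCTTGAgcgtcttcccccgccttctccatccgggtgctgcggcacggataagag
In the Ndufa6 sequence the capitals are a GABPA match that begins 190 bases before the start and an NRF1 match that begins 104 bases before it. In Atp5mc3 they are an ESRRA match that begins 57 bases before the start. The Atp5mc1 and Ndufs3 sequences held no match to any of the 4 motifs.

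RefSeq windows of 300 bases, from 250 bases before to 50 after the start, were found for 69 of the 76 members and were searched on both strands. The NRF1 letters GCGCATGC were in 7 of 69 members' windows (10.1%), against 2.47% of the 33469 windows in the table. The GABPA letters CCGGAAG were in 20 (29.0%), against 8.75% of all windows. The ESRRA letters TCAAGGTCA were in 2 (2.9%), Atp5mc3 and Sdhd, against 0.433% of all windows. The YY1 letters AAGATGGC were in 15 (21.7%), against 3.17% of all windows. Each member had 1 window, while the windows of the whole table were not reduced to 1 per gene or to the genes tested here. The shares are therefore not like for like, and whether they differ for other genes of similar expression was not tested. None of these 4 sets of letters contains another on either strand. Of the 18 members that rose on day 1 (below), 16 had a window, and 1 held the NRF1 letters, 3 the GABPA letters, 2 the ESRRA letters and 4 the YY1 letters. Both members that fell, Ndufa6 and Ndufa1, held the GABPA letters, and Ndufa6 also held the NRF1 and YY1 letters. Of the other 51 members with a window, 5 held the NRF1 letters, 15 the GABPA letters, 0 the ESRRA letters and 10 the YY1 letters. A match describes these letters only and is not evidence that a factor bound there.

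Array medians lay between 146.6 and 160.6 intensity units, and pairs of arrays correlated between 0.965 and 0.997. Hepatocyte markers were the brightest of the marker lists, with summed intensities of 65673 to 73726 on day 1 ozone arrays and 65372 to 70362 on day 1 air arrays. A total of 7 arrays correlated best, in their deviation from the mean of all arrays, with a group other than their own. Among them, day 2 air replicate 5 correlated at -0.52 with the rest of its own group and at 0.60 with day 2 ozone, day 2 ozone replicate 5 at 0.66 with 18 h ozone, and 18 h air replicate 1 at 0.70 with 18 h ozone. Probes for nonspecific binding had medians of 66.1 on day 1 ozone replicate 3 and 54.3 on day 1 air replicate 2, against 85.2 to 92.0 on the other arrays. All arrays were kept, and results that change without these arrays are given both ways.

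The first comparison asked what a single day of ozone did to these genes. At the end of day 1, 18 of the 74 tested members were higher after ozone and 2 were lower at an adjusted p under 0.05. Under quantile normalization 30 were higher and 2 lower, against 31.5% of all genes called (15.5% higher). In the deposited scaling the share called was 27.0%, against 29.5% of all 11625 genes tested, so members were called about as often as other genes. The directions were split differently: 24.3% of members were higher and 2.7% lower, against 13.1% and 16.4% of all genes. The median log2 difference of the members was 0.047, against 0.005 over all genes, and 53 of 74 members lay above 0. Changes were small, from a fall to 0.863-fold for Ndufa6 to a rise of 1.29-fold for Atp5mc1. The 6 ozone and 6 air arrays did not overlap for 9 members in the higher direction and 2 in the lower, against 7.19% and 8.76% of all genes. In bulk liver, more RNA per cell and more cells that express a gene cannot be told apart.

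**Figure D1:**
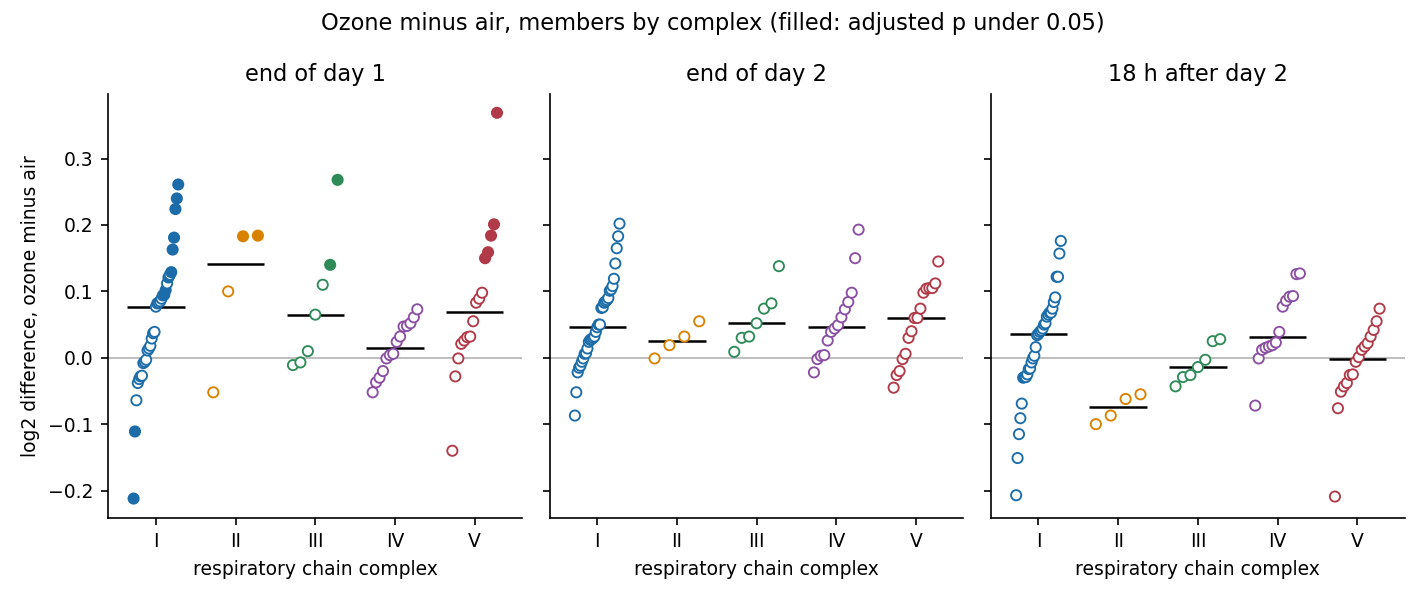
Log2 difference of ozone minus air (y axis) for each of the 74 tested members, by complex (x axis), at the 3 harvest times. Filled points passed an adjusted p of 0.05 and black lines are medians; on day 1, 20 points are filled, none of them in complex IV, and at the other times none is.

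Complex I, the NADH dehydrogenase, held 9 of the members that rose and both that fell, out of 33. Its catalytic core, which carries the flavin and the iron-sulfur clusters, had 4 of 6 tested members higher and none lower, with all 6 differences above 0. Of its 27 accessory subunits, which surround the core and serve its assembly and stability, 5 were higher and 2 lower. Ndufs3, a core subunit of the arm that reaches into the matrix, read 1455.3 to 1526.6 intensity units in ozone samples (median 1492.6), against 1131.0 to 1316.4 in air samples (median 1250.8). Every ozone array was brighter than every air array, and the log2 difference was 0.26 ± 0.05 (SE; limma adjusted p = 8.7e-05). Ndufs1, the largest core subunit, which holds iron-sulfur clusters, read 1028.0 to 1208.7 in ozone samples (median 1126.1) and 903.0 to 1020.7 in air samples (median 938.1). Those groups did not overlap either, and the log2 difference was 0.24 ± 0.07 (limma adjusted p = 0.0055). Ndufv1, which binds NADH and the flavin, read 1094.5 to 1200.0 in ozone samples (median 1162.9), against 989.2 to 1060.5 in air samples (median 1025.9). Its rise of 0.16 ± 0.06 passed with a limma adjusted p of 0.025. The call was lost, at an adjusted p of up to 0.081, without day 1 air replicate 5, without day 1 ozone replicate 3, and without the pair of arrays of low nonspecific signal, a choice made after the data were seen.

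Among the accessory subunits, Ndufa5 read 807.0 to 956.6 in ozone samples (median 895.1), against 714.0 to 828.5 in air samples (median 758.3). The ranges overlapped by a little, with a log2 difference of 0.22 ± 0.05 (limma adjusted p = 0.00071). Ndufa6, an accessory subunit of the LYR family that binds the mitochondrial acyl carrier protein, went the other way. It read 2068.7 to 2452.7 in ozone samples (median 2186.2) and 2491.7 to 2673.7 in air samples (median 2531.0). All ozone arrays lay below all air arrays, and Ndufa6 fell by 0.21 on the log2 scale (SE 0.05, limma adjusted p = 0.00088). Ndufa1, a small membrane subunit encoded on the X chromosome, read 2831.5 to 3139.0 in ozone samples (median 3040.9) and 3175.3 to 3349.7 in air samples (median 3261.1). These groups did not overlap, and Ndufa1 fell by 0.11 (SE 0.03, limma adjusted p = 0.013). The other 5 complex I members that rose were the core subunit Ndufs7 and the accessory subunits Ndufa8, Ndufb9, Ndufc2 and Ndufs4, at log2 differences between 0.095 and 0.181. Ndufa7 was 0.09 higher by its brightest probe set (adjusted p = 0.078) and 0.33 higher by a dimmer one (limma adjusted p = 3.5e-07 with all probe sets tested), so the probe sets of that gene disagreed on the call.

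**Figure D2:**
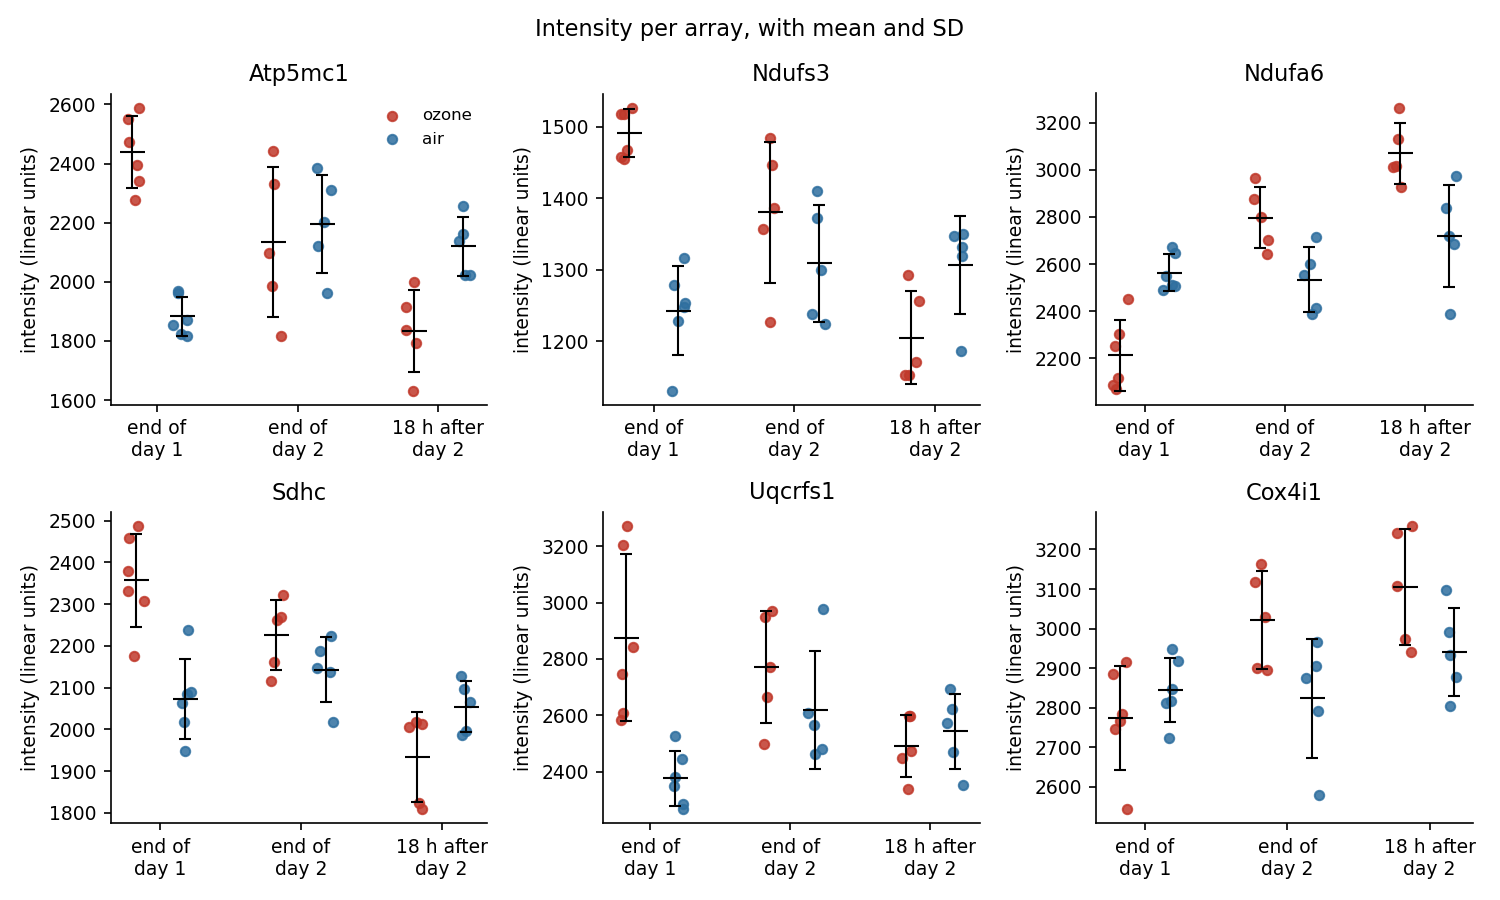
Intensity in linear units (y axis) on every array for 6 members, by harvest time with ozone left of air; bars are the mean and SD of 6 arrays a group on day 1 and 5 at the other times. Atp5mc1, Ndufs3 and Uqcrfs1 lay wholly above air on day 1 and Ndufa6 wholly below it, while Cox4i1 overlapped.

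Complex II, succinate dehydrogenase, also belongs to the tricarboxylic acid cycle. Its membrane anchors Sdhc and Sdhd, which bind ubiquinone and haem, both rose on day 1, and its catalytic subunits Sdha (flavoprotein) and Sdhb (iron-sulfur protein) did not pass. Sdhc read 2176.7 to 2487.0 in ozone samples (median 2356.1), against 1948.0 to 2237.5 in air samples (median 2074.7). The ranges overlapped, and the log2 difference was 0.18 ± 0.04 (limma adjusted p = 0.00069). Sdhd read 2409.4 to 2785.8 in ozone samples (median 2599.8), against 2083.6 to 2404.3 in air samples (median 2315.2). The Sdhd groups stood apart by a narrow gap, with a log2 difference of 0.18 (limma adjusted p = 0.0015), and a second Sdhd probe set gave 0.20. The differences were -0.05 for Sdha (95% interval -0.126 to 0.023, adjusted p = 0.31) and 0.10 for Sdhb (0.000 to 0.199, adjusted p = 0.13), which passed under quantile normalization at 0.124 (limma adjusted p = 0.03).

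Complex III, the ubiquinol-cytochrome c reductase, had 2 of 7 members higher and none lower. Uqcrfs1, the Rieske iron-sulfur protein that takes electrons from ubiquinol, read 2581.3 to 3271.1 in ozone samples (median 2792.9), against 2266.9 to 2526.7 in air samples (median 2364.5). Every ozone array was above every air array, and the log2 difference was 0.27 ± 0.06 (limma adjusted p = 0.00051). Uqcrc1, a core protein of the matrix side, read 1931.6 to 2113.2 in ozone samples (median 2061.6), against 1800.0 to 1931.1 in air samples (median 1837.7). Its groups touched without overlapping, with a log2 difference of 0.14 ± 0.04 (limma adjusted p = 0.0038). The other 5 members ranged from -0.011 for Uqcrq, a ubiquinone-binding protein, to 0.110 for Uqcrc2.

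Complex IV, cytochrome c oxidase, had 0 of 14 members called on day 1 by limma, and none reached an unadjusted p under 0.05. Its differences lay between -0.052 for Cox7c and 0.073 for Cox8a, and the 95% intervals of all 14 ran from -0.132 to 0.159. Cox4i1, the main isoform of the regulatory subunit that binds ATP, read 2543.8 to 2916.5 in ozone samples (median 2774.9), against 2723.2 to 2947.2 in air samples (median 2832.2). These ranges overlapped widely, with a difference of -0.04 ± 0.04 (adjusted p = 0.52). Cox8a, the member of this complex with the smallest p, read 3355.8 to 3726.8 in ozone samples (median 3528.3) and 3248.5 to 3467.8 in air samples (median 3350.1), with an adjusted p of 0.15; under quantile normalization its difference was 0.125 and passed (limma adjusted p = 0.033). Cox5a was dim on its probe set, at 204.9 to 241.6 in ozone samples and 205.5 to 223.5 in air samples, so its difference of 0.05 (adjusted p = 0.47) carries little. The isoforms known from muscle or lung, Cox4i2, Cox6a2 and Cox7a1, had mean log2 levels between 7.22 and 7.503, near the lower limit, and differences between -0.030 and 0.052. Cox7b2 and the pseudogene Cox6c-ps1 were also dim, at mean log2 levels of 7.341 and 7.909. The count of 0 of 14 thus includes dim probe sets, whose changes are understated. Whether complex IV responded less than the other complexes was not tested.

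Complex V, the ATP synthase, had 5 of 16 members higher and none lower. Atp5mc1, 1 of the genes for the c subunit whose ring turns as protons pass, had the largest rise of all members. It read 2275.9 to 2588.9 in ozone samples (median 2434.8), against 1817.5 to 1967.7 in air samples (median 1861.9). Every ozone array was brighter than every air array, and the log2 difference was 0.37 ± 0.06 (1.29-fold, limma adjusted p = 1.6e-05). Atp5mc3 encodes the same mature c subunit and read 4619.7 to 5249.4 in ozone samples (median 5092.4), against 4360.7 to 4602.5 in air samples (median 4505.0). Its groups did not overlap either, at a log2 difference of 0.15 ± 0.04 (limma adjusted p = 0.0032). The gene Atp5mc2 was seen only on a shared probe set. Atp5f1d, the delta subunit of the central stalk, read 1729.9 to 1817.6 in ozone samples (median 1761.2), against 1474.3 to 1582.6 in air samples (median 1545.9). The gap between these ranges was wider than either range, with a log2 difference of 0.20 ± 0.04 (limma adjusted p = 0.00021). The alpha and beta subunits of the catalytic head, Atp5f1a and Atp5f1b, differed by 0.06 ± 0.04 (adjusted p = 0.26) and 0.03 ± 0.03 (adjusted p = 0.48); under quantile normalization they differed by 0.094 and 0.087 and passed (limma adjusted p = 0.029 and 0.046). The 4 tested subunits of the peripheral stalk, which holds the head still, lay between 0.026 and 0.098 and none passed. Atp5mpl and Atp5mk, small membrane subunits, rose by 0.184 and 0.159. The inhibitor Atp5if1, which blocks ATP hydrolysis, was 0.14 lower by its brightest probe set without passing (adjusted p = 0.19), and its dimmer probe sets gave 0.007 and 0.013. Atp5me differed by 0.021 by its brightest probe set without passing. A dimmer Atp5me probe set was 0.118 higher (limma adjusted p = 0.042 with all probe sets tested), so the probe sets of that gene disagreed on the call.

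The mean centred log2 level of all 74 members, taken per array, averaged 0.022 ± 0.043 on day 1 ozone arrays and -0.038 ± 0.027 on day 1 air arrays (SD, n = 6 each). Complex II had the widest separation of these means, at 0.073 ± 0.049 in ozone and -0.030 ± 0.052 in air. Complex IV had the narrowest, at -0.025 ± 0.028 in ozone and -0.040 ± 0.030 in air. Its mean, and its correlation below, include the dim members named above, so they are not like for like with the other complexes. Day 1 ozone replicate 2 had the lowest mean of its group, at -0.056, and sat among the air arrays. Across the 32 arrays, after removal of group means, pairs of members correlated with a median r of 0.298, against 0.029 for pairs of all genes. The median was 0.539 within complex III, 0.475 within complex II, 0.387 within complex V, 0.286 within complex I and 0.205 within complex IV, and 0.297 between members of different complexes. These members share arrays and brightness, and the correlations are descriptions.

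**Figure D3:**
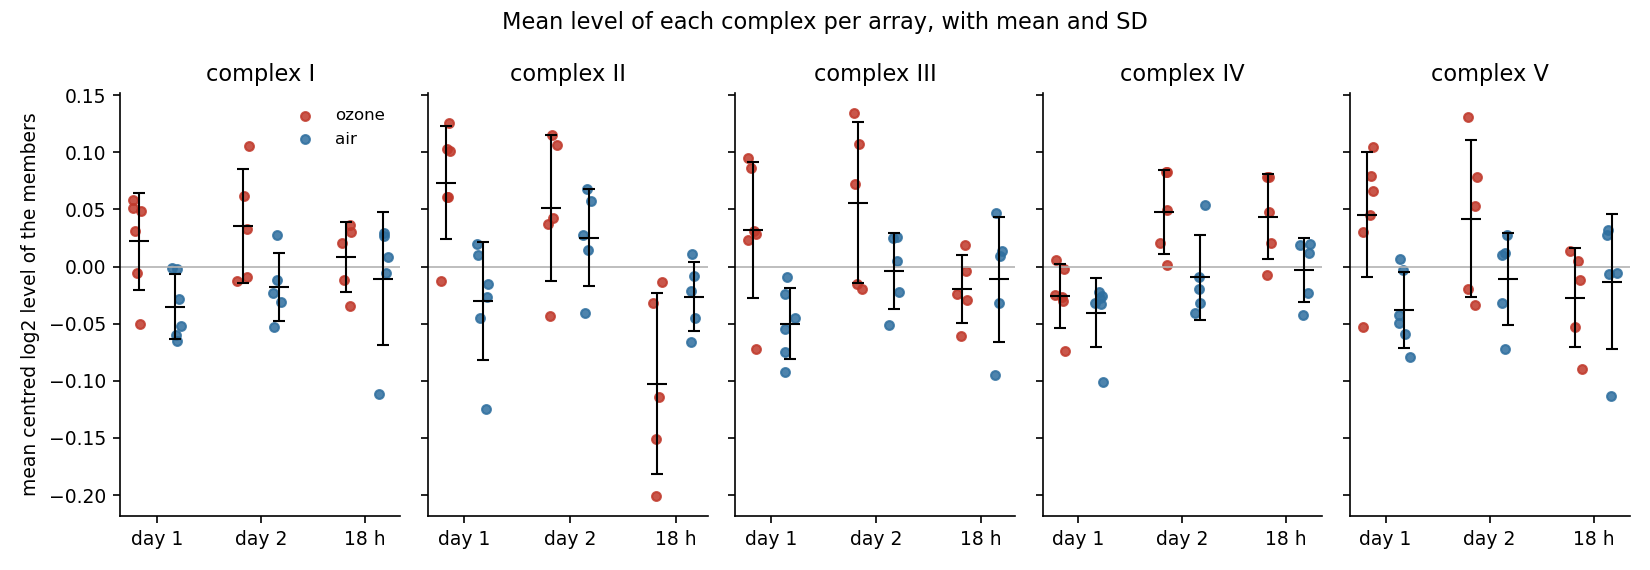
Mean of the members' log2 levels, each centred on its mean over the 32 arrays (y axis), per array and complex, by harvest time with ozone left of air; bars are mean and SD. All 5 complexes averaged higher after ozone on day 1, complex IV, which includes several dim members, by the least. Complex II averaged -0.102 in ozone and -0.026 in air at 18 h.

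Genes that act with these subunits were read from lists of general knowledge. Over all genes, 13.1% were higher and 16.4% lower on day 1, and the counts of each list stand beside these shares. On that day, 9 of 16 tested genes of the tricarboxylic acid cycle and pyruvate dehydrogenase list were higher and none lower, with a median of 0.162. The largest rise among the 9 was that of Pdk4, a pyruvate dehydrogenase kinase, at 0.915 (limma adjusted p = 0.0096), picked after its values were seen. Idh3g and Idh3a, subunits of the NAD-dependent isocitrate dehydrogenase, rose by 0.594 and 0.390 (limma adjusted p = 3.9e-07 and 2.7e-07). Of 36 assembly factors, 13 were higher and 2 lower, with the smallest p-values for Cox10, which makes haem for complex IV, at 0.643 (limma adjusted p = 4e-08) and Ndufaf4 of complex I at 1.029 (4.6e-08). The 2 that fell were Cox19, a copper-handling factor of complex IV, at -0.330 (4.3e-05), and Tmem126b of complex I at -0.148, both picked after their values were seen. Of 18 electron carriers and entry points, 4 were higher and 3 lower, with Coq8a, a kinase-like protein of ubiquinone synthesis, at -0.450 (0.00011) and Dhodh, which feeds electrons from pyrimidine synthesis, at 0.145 (0.00017). Of 17 regulators, 6 were higher and 3 lower. Esrra, an orphan receptor known to bind promoters of these genes, rose by 0.489 (5.8e-07), and Polrmt, the mitochondrial RNA polymerase, by 0.481 (1.9e-06). Ppargc1a and Tfam were looked at after their values were seen: the coactivator Ppargc1a rose by 0.859 (0.00011), and Tfam, which packages mitochondrial DNA, fell by 0.170 (0.0052). Gabpa and Gabpb1, also picked after their values were seen, differed by 0.167 without a call (limma adjusted p = 0.16) and by -0.262 (0.00018). A further list held subunits and associated genes outside the symbol rule, of which 5 were tested (Cyc1, Ndufab1, Cox17, Higd1a and Higd2a). Of these, 2 were higher: Higd1a, an associated gene, at 0.527 and Cyc1, the cytochrome c1 of complex III, at 0.211. The 2 tested mitochondrially encoded subunits had no call.

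Markers of other liver cells are given beside these values, and 29.5% of all genes were called on day 1 (16.4% lower). Of 9 Kupffer cell and macrophage markers, 2 were lower (Lyz2 at a log2 difference of -0.629 and Adgre1 at -0.267), with summed intensities of 4566 to 7297 in ozone samples and 5783 to 7058 in air samples. Of 8 endothelial markers, 3 were lower (Tek, Stab1 and Stab2), with sums of 2920 to 3807 in ozone samples and 3034 to 3871 in air samples. Of 10 stellate cell markers 1 was lower, of 4 cholangiocyte markers 1 was lower, and of 3 neutrophil and monocyte markers 1 was lower. Hepatocyte markers had 1 of 9 higher, and the 7 lymphocyte and 3 erythroid markers had no call. Of 4 muscle markers, Myh7 was 0.07 higher, and of 3 brown fat markers only Ppargc1a was called. The part of these differences in the members' values was not tested.

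The second comparison asked whether the response was still present at the end of a second day of exposure. At the end of day 2, 0 of 74 members passed by limma, against 0.705% of all genes (0.465% higher, 0.241% lower), and 13 had an unadjusted p under 0.05. Here and below, shares of all genes are at the adjusted threshold. Counts at an unadjusted p have no such share beside them and are descriptions. The median difference was 0.048, against 0.000 over all genes, and 60 of 74 members lay above 0. The groups did not overlap for 2 members, both higher (Ndufa2 and Ndufs7), against 1.06% of all genes higher and 0.43% lower. Ndufs7, a core subunit with an iron-sulfur cluster, read 1545.4, 1515.2, 1536.6, 1536.1 and 1518.8 in ozone samples, against 1418.2, 1408.0, 1375.4, 1332.0 and 1509.9 in air samples. Air replicate 5 came within a few units of the lowest ozone sample, and the difference was 0.12 ± 0.05 without passing (limma adjusted p = 0.27). The member with the smallest p, Cox5b, had not been called on day 1, while Ndufv1 and Atp5f1d, next to it, had. Cox5b, a zinc-binding subunit of complex IV, read 3036.4, 2689.7, 2912.4, 3019.1 and 2635.0 in ozone samples, against 2463.5, 2458.4, 2420.7, 2381.1 and 2764.8 in air samples. Only air replicate 5 reached into the ozone range, and the difference was 0.19 ± 0.05 (limma adjusted p = 0.058). Ndufv1 read 1268.7, 1189.8, 1221.2, 1301.2 and 1068.4 in ozone samples, against 1041.6, 1018.3, 988.2, 979.0 and 1228.6 in air samples. Here too air replicate 5 was high and ozone replicate 5 low, with a difference of 0.20 ± 0.06 (adjusted p = 0.092). Atp5f1d read 1794.4, 1746.7, 1803.1, 1847.7 and 1613.5 in ozone samples, against 1538.5, 1641.1, 1569.0, 1472.1 and 1741.8 in air samples. The same pair of arrays made these groups overlap, with a difference of 0.145 ± 0.043 (adjusted p = 0.085).

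Single arrays decided the day 2 count. Without day 2 air replicate 5, 5 members passed, all higher (Atp5f1b, Atp5f1d, Cox5b, Cox7a2l and Ndufv1), against 8.4% of all genes (4.13% higher). Without day 2 ozone replicate 5, 4 passed, all higher (Atp5f1d, Cox5b, Ndufb5 and Ndufv1), against 4.35% of all genes (2.86% higher). Without both of them and 18 h air replicate 5, a choice made after the data were seen, 6 passed, with Cox5b at 0.26 (adjusted p = 0.00061) and Ndufv1 at 0.30 (0.00032). In that setting 13.2% of all genes passed (6.31% higher). By complex, the day 2 medians were 0.046 for complex I (26 of 33 members above 0), 0.026 for complex II (3 of 4), 0.052 for complex III (7 of 7), 0.047 for complex IV (12 of 14) and 0.060 for complex V (12 of 16). Complex III had Uqcr11 with the smallest p at 0.14 (adjusted p = 0.17), and complex II had Sdhc at 0.05 (adjusted p = 0.72). Atp5mc1, the largest rise of day 1, read 2097.9, 1986.4, 2442.5, 2329.9 and 1817.7 in ozone samples, against 1961.7, 2203.3, 2309.0, 2120.8 and 2384.6 in air samples. The groups overlapped completely, at -0.045 ± 0.064 (adjusted p = 0.92). Ndufa6 read 2701.7, 2640.9, 2799.6, 2877.2 and 2964.5 in ozone samples, against 2716.8, 2602.0, 2551.9, 2412.2 and 2389.9 in air samples. Its ozone samples were mostly the brighter ones, apart from an overlap with air replicate 1, at 0.14 ± 0.05 without passing (limma adjusted p = 0.17). The pathway lists had no call on day 2 but for Coq10a, a ubiquinone-binding protein, at -0.261, and Lyz2 alone among the markers was lower, at -0.403.

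At 18 h after the second exposure, 1 array stood apart in RNA quality: the 3'/5' signal ratio of actin was 3.5 on ozone replicate 5, against 2.16 to 2.89 on all other arrays of the study. With it, 0 of 74 members passed by limma, against 1.17% of all genes (0.86% higher, 0.31% lower), 13 had an unadjusted p under 0.05, and 42 of 74 lay above 0. The median was 0.016, against 0.015 over all genes, and lay between -0.003 (without 18 h air replicate 3) and 0.030 (without 18 h ozone replicate 2) when 1 array was left out. The groups did not overlap for 1 member in each direction, Ndufa4l2 higher and Atp5mc1 lower, against 1.89% and 0.869% of all genes. Ndufa4l2 was dim, at 155.2 to 159.1 in ozone samples and 147.8 to 153.5 in air samples, so its separation carries little. Ndufa6, which fell on day 1, read 2926.5, 3129.5, 3263.1, 3013.8 and 3011.2 in ozone samples, against 2971.3, 2717.6, 2390.2, 2837.1 and 2686.2 in air samples. All but air replicate 1 were below the ozone samples, and the difference was 0.18 ± 0.05 (limma adjusted p = 0.087). Atp5mc1 read 1792.0, 1835.5, 1913.8, 1999.8 and 1632.3 in ozone samples, against 2023.2, 2022.4, 2161.4, 2256.1 and 2139.2 in air samples. Every ozone sample was below every air sample, the opposite of day 1, at -0.21 ± 0.06 without passing (adjusted p = 0.10). Ndufs1 read 826.1, 867.6, 888.9, 883.9 and 690.4 in ozone samples, against 876.9, 951.2, 875.1, 1034.3 and 1068.3 in air samples. Ozone replicates 3 and 4 reached above the lowest air arrays, replicates 1 and 3, and the difference was -0.21 ± 0.07 without passing (adjusted p = 0.16). Ndufs3 read 1291.9, 1152.6, 1171.4, 1152.7 and 1256.4 in ozone samples, against 1186.5, 1319.3, 1331.3, 1349.8 and 1346.6 in air samples. Air replicate 1 alone lay inside the ozone range, and the difference was -0.115 ± 0.052 without passing (adjusted p = 0.34). Ozone replicate 5 was the lowest array for Atp5mc1 and Ndufs1, and without it their differences were -0.168 (adjusted p = 0.30) and -0.143 (adjusted p = 0.50). All 4 complex II genes lay below 0, between -0.100 for Sdhd (adjusted p = 0.39) and -0.055 for Sdha. Sdhd read 2232.0, 2173.9, 2320.4, 2053.1 and 2125.3 in ozone samples, against 2269.2, 2372.5, 2302.6, 2407.3 and 2334.0 in air samples. Ozone replicate 3 alone reached the air range. The second Sdhd probe set gave -0.04. Ozone replicate 5 was also the lowest ozone array for Sdha (1632.7) and Sdhc (1809.3), and the Sdha difference ranged from -0.089 to -0.021 over the alternatives. Complex IV had 12 of 14 members above 0 at 18 h, with a median of 0.031, against 20 of 33 in complex I (0.036), 2 of 7 in complex III (-0.014) and 8 of 16 in complex V (-0.002). Cox7a2l, a factor that helps complexes III and IV associate, was 0.13 higher without passing (adjusted p = 0.17), and Uqcrh, the hinge protein of complex III, differed by -0.04 (adjusted p = 0.83). Without 18 h air replicate 1, 2 members passed, Ndufa6 at 0.21 (adjusted p = 0.022) and Ndufa8 at -0.19 (adjusted p = 0.043), against 3.54% of all genes. Pdha1, the pyruvate dehydrogenase alpha subunit, was the 1 pathway gene called, at 0.230, and the endothelial marker Stab2 was 0.284 higher.

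Whether ozone effects differed between times was tested directly. The effect at the end of day 2 differed from that on day 1 for 3 of 74 members, 1 upward and 2 downward, against 5.09% of all genes (3.13% upward, 1.96% downward), and under quantile normalization for 1 upward and 6 downward, against 4.01% and 3.43% of all genes. Ndufa6 moved up by 0.35 ± 0.07 (limma adjusted p = 0.0049), Atp5mc1 down by 0.41 ± 0.09 (0.0062) and Ndufa8, an intermembrane-space subunit, down by 0.27 ± 0.07 (0.03). The Ndufa8 call was lost in 7 of the alternatives, among them without day 2 air replicate 2, without day 2 air replicate 4 and without day 2 ozone replicate 5, with adjusted p up to 0.10. The effect at 18 h differed from that on day 1 for 11 members, 3 upward and 8 downward, against 20.4% of all genes (12.4% upward, 7.96% downward), and under quantile normalization for 2 upward and 20 downward, against 22.7% of all genes (10.7% downward). Atp5mc1 differed by -0.58 ± 0.09 (limma adjusted p = 3.6e-05), Ndufs3 by -0.38 ± 0.07 (0.00028) and Ndufa6 by 0.39 ± 0.07 (0.00023). The other 6 that moved down were Ndufs1, Ndufa8, Uqcrfs1, Sdhd, Sdhc and Atp5mpl, and the other 2 that moved up were Ndufa1 and Ndufb2. The effect at 18 h did not pass against that at day 2 for any member by limma (3 at an unadjusted p under 0.05), against 0.0086% of all genes.

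The 18 members that rose on day 1 were chosen on that day's values, and their later differences are a description. Their median was 0.182 on day 1, 0.052 at the end of day 2 and 0.000 at 18 h, with 14 and 9 of 18 above 0 at the later times. Both members that fell on day 1 were above 0 at both later times. Over the 74 members, differences on day 1 and at 18 h had a Pearson r of -0.58 (Spearman rho -0.45), against -0.16 over all genes, and those at day 2 and 18 h had 0.56, against 0.24. Day 1 and day 2 gave -0.09 over the members and 0.60 over all genes. Each time used its own arrays, so the 3 sets share no sample, but members within a time share arrays. Among air samples, 0 members passed by limma between day 2 and day 1 (4 at an unadjusted p under 0.05), against 0.0086% of all genes, and 0 between 18 h and day 2 (1 at an unadjusted p under 0.05), against 0.12% (0.086% higher, 0.0344% lower). Air samples were 0.22 ± 0.06 higher for Atp5mc1 on day 2 than on day 1 without passing (adjusted p = 0.55).

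**Figure D4:**
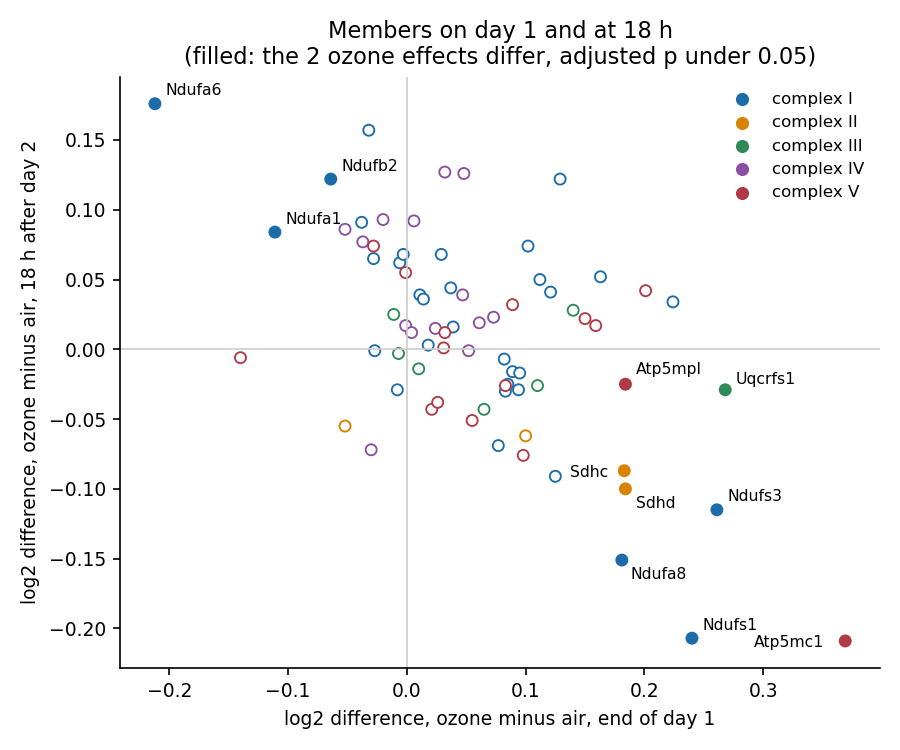
Log2 difference of ozone minus air on day 1 (x axis) and at 18 h after day 2 (y axis) for the 74 members, coloured by complex; filled, named points are the 11 whose effects differ between these times. Atp5mc1, Ndufs1, Ndufs3 and Ndufa8 lie at the lower right and Ndufa6 at the upper left.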

How the data were processed

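Liver RNA was hybridised to single-colour rat arrays of the Affymetrix HT-Rat-230 PM type, per the labels' protocols. Deposited intensities are linear, 1 per probe set. Per the submitters' processing notes the authors used PLIER within Expression Console. Their versions, background steps and scaling were not given in the sources used here. They ran from 30.5 to 15558 with no missing value, and background remains in them, so fold changes of dim genes are understated. Groups and replicate numbers came from the titles, and the number of arrays limits the precision.

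Of 31139 probe sets, 97 control, 11407 without a gene and 573 with several genes were left out, which left 19062. Gene names are those of the platform annotation, and all 76 members were found in RefSeq. Values were analysed as log2(intensity + 16). Genes whose mean fell short of the 25th percentile (7.107) were dropped, leaving 11625 for testing. Differences were tested with limma 3.58.1 in R 4.3.3 (lmFit, eBayes with an intensity trend), 1 mean per group, no block, two-sided, adjusted by Benjamini-Hochberg over all genes, at 0.05. The test was run on simulated data first. Figures were drawn with matplotlib 3.10.9, and tables were made with pandas 2.3.3 and numpy 2.4.6 under Python 3.11.15. Same-numbered ozone and air arrays correlated between -0.58 and 0.26. For most numbers an array of another number correlated higher, but not for all. With so few arrays per group, these correlations cannot decide whether same-numbered samples belong together. Results with the replicate number as a block are given below.

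The members, lists and tests were chosen with earlier results of these data known. Members named in detail follow a rule: per ozone contrast the 2 with the smallest p called in each complex, or the 1 with the smallest p where none was called; members called against the main direction; the 3 with the smallest p from each difference; and set reference subunits, isoforms and c ring genes. The other called members are named to complete counts, and other members or pathway genes were picked after their values were seen. Alternatives covered the offset, filter, probe set, scaling, array weights, trend, samples fitted, block and each left-out array.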

Additional observations from a re-analysis of the deposited data

Results flagged for a closer look

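Of 210 groups of 5 or 6 arrays examined, 17 had 1 array that lay far from the rest by Dixon's gap test, and chance gives about 1 in 20. Array 18 h air replicate 3 was low for Atp5f1a (2944.2), Ndufa1 (2914.7) and Uqcr11 (1745.7), and for the mean centred level of all members (-0.095), complex I (-0.112) and complex V (-0.114). Day 2 air replicate 5 was high for Cox5b (2764.8) and Ndufv1 (1228.6), and day 2 air replicate 1 was high for Cox5a (238.2). Day 1 ozone replicate 2 was low for Cox5b (2314.8) and Sdhb (2220.3). Day 1 air replicate 2 was low for Cox7a1 (118.2) and for the mean of complex IV (-0.101), and day 1 air replicate 6 was high for Ndufa8 (1338.8). At 18 h, air replicate 1 was low for Ndufs3 (1186.5), ozone replicate 3 was low for Ndufa8 (1030.9), and ozone replicate 4 was low for Uqcrh (1569.2).

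Among the members picked for the smallest p in each difference, the ozone effect differed between harvest times for 4 by the test of the difference itself. Ndufa6 differed by 0.354 between day 2 and day 1 and by 0.388 between 18 h and day 1, Atp5mc1 by -0.414 and -0.578, Ndufa8 by -0.268 between day 2 and day 1, and Ndufs3 by -0.376 between 18 h and day 1 (log2 units, limma). Other members, listed with the times above, also differed between 18 h and day 1, as did Ndufa8. Causes were not tested.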

How the results depend on the processing

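The count on day 1 was 32 members (30 higher, 2 lower) under quantile normalization. With the replicate number as a block it was 13 (12 higher, 1 lower), against 23.7% of all genes (10.7% higher, 12.9% lower). Leaving out 1 array gave 16 to 23. At the end of day 2 the count was 13 with array weights, all higher, against 17.5% of all genes (9.2% higher). It was 6 without 3 arrays that lay apart, all higher, against 13.2% of all genes (6.31% higher). Without these and 18 h air replicate 1 it was 7, all higher, against 13.5% of all genes (6.47% higher). It was 1, also higher, with a filter at the 50th percentile, with median-centred arrays and without the intensity trend. Leaving out 1 array gave 0 to 5, with 5 without day 2 air replicate 5, against 8.4% of all genes (4.13% higher). At 18 h the count was 4 with array weights (1 higher, 3 lower), against 5.28% of all genes (3.69% higher, 1.59% lower). Without 4 arrays it was 2, against 4.95% of all genes. Leaving out 1 array gave 0 to 2, with 2 without 18 h air replicate 1, against 3.54% of all genes. The day 2 minus day 1 effect gave 7 members under quantile normalization, 6 with array weights (8.15% of all genes) and 1 with the replicate block (0.645%), and 2 to 3 without 1 array. The 18 h minus day 2 effect gave 2 members with array weights (9.01% of all genes), 2 without 3 arrays (8.58%) and 1 without 4 arrays (9.74%). The 18 h minus day 1 effect gave 22 under quantile normalization and 17 with array weights (26.3% of all genes), and 9 to 13 without 1 array. The day 2 minus day 1 air contrast gave 1 with array weights (0.49% of all genes). These 3 and 4 arrays were chosen after seeing the data. Where no share of all genes is given here or above, a count only describes the setting, because that share moves too. Under the replicate block Ndufa1 and Ndufv1 on day 1 and the day 2 minus day 1 effects of Ndufa6 (adjusted p = 0.068) and Ndufa8 were no longer called. Of 67 named differences, 13 took both signs over the alternatives, and 0 of these 13 had passed by limma. In 3 of them the move was at least 1 SE: Cox7a1 on day 1 ranged from -0.02 (without day 1 air replicate 2) to 0.086, and at day 2 Atp5mc1 was 0.041 and Atp5mc3 0.061 without 3 and without 4 arrays. Median differences of the members moved by less than the largest group SD of the members' mean level per array in every alternative run. That SD was 0.043 on day 1, 0.052 at day 2 and 0.049 at 18 h. It is about as large as the medians themselves or larger, so a median could vanish within this limit. The median at 18 h turned to -0.003 without 18 h air replicate 3. The cause was not tested.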
